A study of Mus musculus with 1086 samples.

Results

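Liver messenger RNA of the 3 wild-derived founder strains of the Diversity Outbred stock, CAST/EiJ, PWK/PhJ and WSB/EiJ, was set against that of the 5 classical founder strains, A/J, C57BL/6J, 129S1/SvImJ, NOD/ShiLtJ and NZO/HILtJ (below CAST, PWK, WSB, AJ, B6, 129S1, NOD and NZO). The strains were assigned to the classes by name. 48 wild-derived and 78 classical males were used, all but 2 of the founder animals in a series with 414 labelled animals. The 3 wild-derived strains had 16 males each, AJ, 129S1 and NZO had 16 each, and B6 and NOD had 15 each after 2 animals were left out. In each strain 8 males were labelled for a high fat diet and 8 for chow, and the used groups held 7 or 8.

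Every founder animal was an unmanipulated inbred male whose liver was snap frozen. The animals were killed at 26 weeks of age, except the NZO males of both diets at 20 weeks, so that NZO and its younger age cannot be told apart. Diets began at 4 weeks of age. The labels describe them in 2 ways, as 45% against 17% of kcal from fat with 34% sucrose by weight in the high fat diet, and as 22% against 6% fat by weight. Animals of 1 inbred strain share a genome, so the spread between animals measures variation within strains, and each class holds few independent genomes.

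Inbred mouse strains carry different sequence variants, and expression of a liver gene can differ between strains through variants near the gene, through copy number, or through hormones, diet and other cells. CAST, PWK and WSB were bred from mice of 3 subspecies, Mus musculus castaneus, musculus and domesticus, while the classical strains descend mostly from domesticus fancy mice. In mouse liver, genes of drug metabolism, the major urinary proteins and genes set by the sex-dependent pattern of growth hormone are known to vary widely between strains.

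The deposited values were relative to the upper quartile of each animal. They are given here as count equivalents, the deposited value times 1 constant, so that 1 unit is worth about 1 read in an average library. The total per animal, recovered from the steps between values, ran from 5.86 to 14.1 M reads, with strain medians of 8.18 to 8.78 M. Differences are on the scale of log2(count equivalents + 1), which understates changes of low genes. All but 2 animals were closest to other animals of their labelled strain. 1 animal labelled B6 was closest to NOD (r = 0.942, against 0.723 with its own strain) and 1 labelled NOD was closest to B6 (0.938 against 0.751), and both were left out. 8 hepatocyte markers were abundant in every animal used, with a summed level of 271700 to 776100 count equivalents in wild-derived and 332000 to 1189000 in classical livers.

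2 further features of CAST bear on the values. First, 2 of the 8 CAST males on high fat were apart from the other 14 CAST males. In 8 of the genes that separate the classes, at least 1 of the 2 lay over 2-fold outside the others. Second, genes of chromosome 11 were low in CAST as a block. Over the 1086 tested genes of that chromosome, the CAST mean lay 0.53 log2 units below the median of the other 7 strains at the median gene, and 28.5% of the genes were over 2-fold lower. On the other 18 autosomes the CAST median ran from -0.02 to 0.05, with 2.84% to 9.11% of genes over 2-fold lower. The other 7 strains had chromosome 11 medians of -0.00 to 0.03. All 16 CAST animals shared the offset, with medians of -0.61 to -0.37 against -0.06 to 0.09 in the other 110 animals. The first 120 tested genes in chromosomal order were at 0.00, and the remaining 966 at -0.63. What lowered these genes was not tested, and class counts are given below with and without chromosome 11 for the gene lists that hold genes of it.

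**Figure D1:**
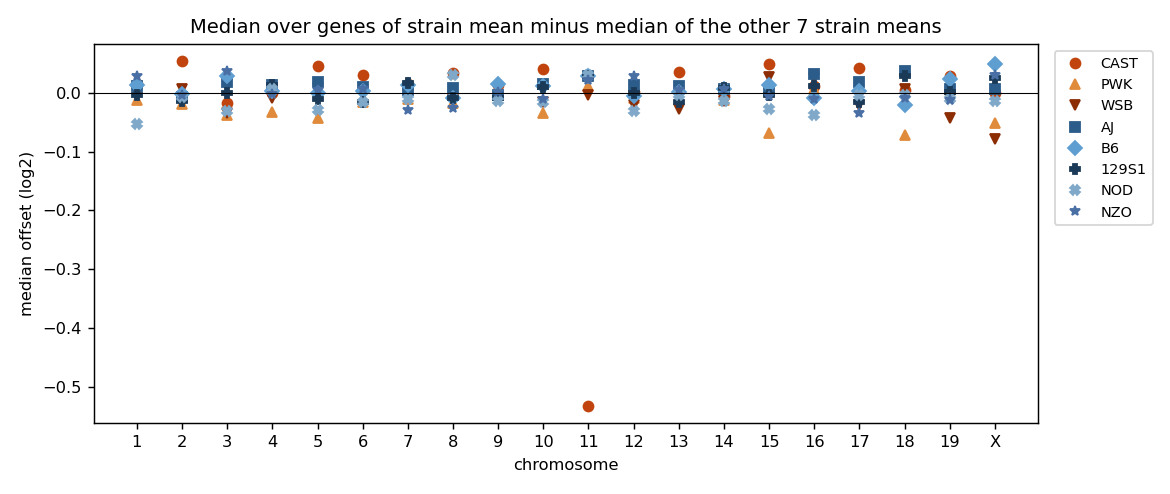
Median over the tested genes of each chromosome (horizontal axis) of a strain's mean minus the median of the other 7 strain means (vertical axis, log2); 1 symbol per strain. CAST at chromosome 11 lies at -0.53, while the CAST values of the other 18 autosomes lie between -0.02 and 0.05.

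With each strain weighted equally and diet in the model, 9240 of 13636 tested genes (67.8%) differed between the classes by limma at a Benjamini-Hochberg adjusted p under 0.05. Of these, 4458 (32.7% of those tested) were higher and 4782 (35.1%) lower in the wild-derived strains, so 48.2% of the calls were higher. With libraries scaled to equal totals the calls were 2706 higher and 7022 lower (27.8% higher), since that scaling moved the median of all genes by -0.13. Without chromosome 11 they were 4245 higher and 4124 lower. The difference exceeded 2-fold in 1286 genes (9.43%). With the 8 strains as the replicates, 93 genes (0.682%) were called, and 2463 (18.1%) had an unadjusted p under 0.05.

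A difference of class means can come from 1 strain. Taken singly against the classical mean, CAST had 4542 genes higher and 4481 lower, PWK 3826 and 4351, and WSB 3630 and 3868. The median absolute difference between 2 strains was 0.31 to 0.32 on the log2 scale among the wild-derived strains and 0.17 to 0.22 among the classical strains. Between a wild-derived and a classical strain it was 0.34 to 0.35 for CAST, 0.28 to 0.31 for PWK and 0.25 to 0.27 for WSB. WSB thus lay nearer to the classical strains than to CAST or PWK by this measure.

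The stricter question was which genes put all 3 wild-derived strains on one side of all 5 classical strains. A gene was called separating when all 15 differences between a wild-derived and a classical strain had 1 sign and the largest of their 15 p-values passed after adjustment over all genes. Its gap is the smallest of those 15 differences. 54 genes (0.396%) separated as higher and 72 (0.528%) as lower in the wild-derived strains, 0.924% in all. The gap was over 2-fold in 28 of the higher and 27 of the lower genes. Without the 2 CAST animals that stood apart, 58 separated as higher and 76 as lower, and these included all of the first set. Without chromosome 11 there were 53 and 66. The strain that set the gap was CAST in 38 genes, PWK in 39 and WSB in 49. At the threshold, Rfc2 and Inmt were just inside (adjusted p = 0.0483 for both), and the MHC class I gene H2-D1 and Uhrf2 just outside (0.0554 for both).

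The separating genes were spread over the genome, with 12 on chromosome 1, 12 on chromosome 2 and 0 on chromosomes 12 and 18. 45 of the higher and 63 of the lower genes were protein-coding, and 3 of the 284 tested processed pseudogenes were among the higher ones (1.06%, against 0.871% of protein-coding genes in either direction). 15 clusters of 2 or 3 lay within 10 tested genes of each other, such as 2 triplets of predicted genes on chromosome 2, each higher in all members (Gm14391, Gm4631 and Gm6710, and Gm14419, Gm14416 and Gm14418), and Mup10, Mup13 and Mup14 on chromosome 4, which differed in direction.

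In 10 genes (0.0733% of those tested) no wild-derived animal overlapped any classical animal. 7 were higher in the wild-derived strains, namely Rps18-ps3, Rps2-ps13, Ces2h, Amd2, Atic and 2 loci with identifiers only, and 3 were lower, Ugt3a2, Rps18 and Rps2. 5 of the 10 were chosen for a closer description after these values were seen, because with Amd1 they form 3 pairs of a gene and a near-identical copy. Rps18 and Rps2 encode proteins of the small ribosomal subunit, and Rps18-ps3 and Rps2-ps13 are processed pseudogenes, intronless copies of their messenger RNA. Amd1 and Amd2 encode S-adenosylmethionine decarboxylase of polyamine synthesis.

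The copies are so alike that many reads cannot tell them apart. In the GRCm38 reference (GENCODE M21 transcripts), Rps18-ps3 on chromosome 8 matched 453 of 456 aligned coding bases of Rps18 on chromosome 17 (99.34%), Rps2-ps13 on X matched 875 of 882 of Rps2 on chromosome 17 (99.21%), and Amd2 matched 1004 of 1005 of Amd1, both on chromosome 10 (99.9%). The stretches below are 100 bases long, the length of 1 read, in the sense direction, and hold bases by which a read can be told apart. Capitals mark the bases that differ within each pair. Counted from 1 at the start of the printed stretch, with the parent gene's base first, the substitutions are A7C and C100T in Rps18-ps3, T60A and A84G in Rps2-ps13, and G100C in Amd2.
Rps18: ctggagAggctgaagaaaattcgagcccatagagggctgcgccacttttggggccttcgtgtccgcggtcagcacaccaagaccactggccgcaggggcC
Rps18-ps3: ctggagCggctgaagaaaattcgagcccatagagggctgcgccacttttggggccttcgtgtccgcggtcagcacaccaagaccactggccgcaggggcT
Rps2: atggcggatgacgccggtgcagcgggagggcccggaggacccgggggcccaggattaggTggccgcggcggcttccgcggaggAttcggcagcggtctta
Rps2-ps13: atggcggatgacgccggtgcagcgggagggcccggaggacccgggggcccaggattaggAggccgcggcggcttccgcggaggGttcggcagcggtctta
Amd1: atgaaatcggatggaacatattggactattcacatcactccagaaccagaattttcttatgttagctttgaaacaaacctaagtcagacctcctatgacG
Amd2: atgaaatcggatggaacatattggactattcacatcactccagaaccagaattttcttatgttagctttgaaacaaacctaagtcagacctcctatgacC

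Rps18-ps3 had 445 count equivalents in the lowest, 878 in the median and 1830 in the highest wild-derived animal, against 0, 0 and 4.01 in classical animals. Rps18 ran the other way, with 49.9 (lowest), 172.9 (median) and 954.9 (highest) in wild-derived and 1050, 1491 and 1822 in classical animals. The groups did not overlap for either gene. On the log2 scale Rps18-ps3 was higher by 9.65 and Rps18 lower, by -2.82 ± 0.08 (SE; adjusted p of separation 7.12e-10 by limma). Summed, the pair had a median of 1142 in wild-derived and 1491 in classical animals, with overlapping ranges (768.3 to 1900 and 1050 to 1822). This sum leaves out other genes that share windows with Rps18. Among them is Gm6436, also a separating gene, with 29.8% of its windows in other genes. Gm6436 had 0, 134.1 and 943.4 count equivalents (lowest, median and highest) in wild-derived and 0, 0 and 10.4 in classical animals. Within the wild-derived class, PWK kept the most Rps18 (median 577.2), ahead of WSB (160.4) and CAST (74.4).

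Rps2-ps13 had 775.3, 2371 and 4654 count equivalents (lowest, median and highest) in wild-derived animals, against 0, 3.05 and 11.4 in classical animals. Rps2 had 441.8, 772.7 and 1889 in wild-derived and 2679, 3299 and 4555 in classical animals. Neither gene overlapped between the classes. The differences were 9.18 ± 0.18 for Rps2-ps13 (adjusted p of separation 4.12e-39) and -1.80 for Rps2 (6.09e-17). The median of the sum was 3025 in wild-derived and 3303 in classical animals. For the third pair, Amd2 had 41.8, 98.5 and 154.7 in wild-derived and 0, 0 and 11.2 in classical animals, and Amd1 had 58.8, 192.8 and 500.8 against 175.7, 349.9 and 608.5. Their sum had medians of 302.3 in wild-derived and 354.6 in classical animals, and in all 3 pairs the ranges of the sums overlapped between the classes.

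The 2 CAST males that stood apart were plain in these pairs. They had 904.8 and 954.9 count equivalents of Rps18, against 49.9 to 115.9 in the other 14 CAST males, and 962.0 and 870.2 of Rps2-ps13, against 1950 to 4654. Their values still lay on the wild-derived side of every classical animal. 1 of the 2 also had 102600 of Mup10, against 3527 to 7901 in the others. How many reads are shared depends on the gene. Of all 100-base windows, 57.3% of Rps18, 64.4% of Rps18-ps3, 58.5% of Rps2, 76.5% of Rps2-ps13 and 72.9% of Amd2 also occurred in another annotated gene.

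**Figure D2:**
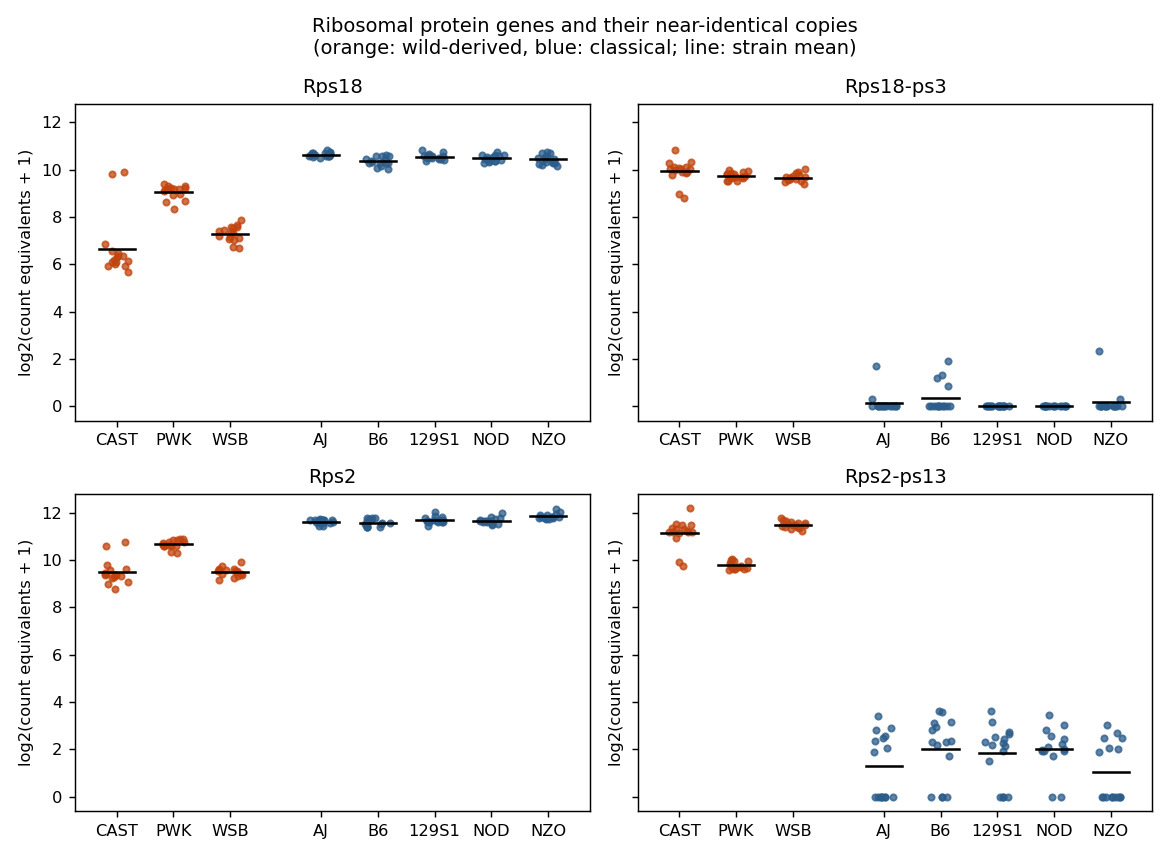
Level of Rps18, Rps18-ps3, Rps2 and Rps2-ps13 in each animal (vertical axis, log2(count equivalents + 1)) by strain, wild-derived in orange and classical in blue, with the strain mean as a line. Every wild-derived animal lies below every classical animal for Rps18 and Rps2 and above it for the copies, and 2 CAST males lie apart from the other 14 for Rps18 and Rps2-ps13.

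How often such sharing occurred was counted over the separating genes. Of the 50 higher ones that could be matched, 9 (18%) had at least 50% of their windows in common with another gene, as had 4 of 69 lower ones (5.8%) and 707 of 13163 tested genes (5.37%), overlapping genes included. This difference in shares was not tested. Values of those 13 genes, which include 5 of the 6 members of the pairs, the 3 separating major urinary proteins and Ugt1a6a, are therefore uncertain as to which copy they belong to. Named genes with no shared window included Ces2h, Moxd1, Il33, Serpine2, Cyp7b1, Fetub, Ugt3a2, Abcc3, Cyp2c38, Nsun3, Carmil1, Inmt, Tmem19, Camk1d and Baat.

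The 24 separating genes named by a set rule, the 12 with the widest gap in each direction among named genes with a mean log2 level of 5 or more, are described below by role, together with separating members of the gene lists and the members with the smallest p for the class difference. Genes outside these rules are said to be so or were chosen after their values were seen. Values in threes are the lowest, median and highest animal of a class. Among the genes of drug metabolism, Ces2h encodes a carboxylesterase. It had 196.8, 485.8 and 781.8 count equivalents in wild-derived animals, against 0, 2.4 and 13.5 in classical animals. The ranges lay far apart, and the difference was 7.12 ± 0.13 (adjusted p of separation 1.67e-43). Ugt3a2, a glycosyltransferase of the UGT family, had 80.7, 242.8 and 471.4 in wild-derived and 1179, 2235 and 3374 in classical animals, again without overlap, a difference of -3.24 ± 0.05 (2.12e-46). Ugt1a6a, which glucuronidates simple phenols, was lower by -1.26 ± 0.04, with medians of 399.2 in wild-derived and 954.1 in classical animals and overlapping ranges. All of its 100-base windows (100%) also occurred in other genes, most in Ugt1a7c, Ugt1a6b and Ugt1a5, so the assignment to Ugt1a6a is uncertain.

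The cytochrome P450 genes went both ways. Cyp2c38 had 0, 3.75 and 126.3 count equivalents in wild-derived animals, against 13.2, 229.6 and 1546 in classical animals. It was lowest in PWK, and the overlap was mainly between CAST, with up to 126.3, and NOD, with as few as 13.2 (difference -5.41 ± 0.17). In chow animals alone Cyp2c38 did not separate (adjusted p = 0.617, limma). Cyp2d11 had 13.5, 421.6 and 1124 in wild-derived and 0, 3.18 and 13.6 in classical animals, so that the ranges barely met (5.88 ± 0.13). Over families 1 to 4, 31 of 59 tested members were higher and 19 lower (52.5% and 32.2%, against 32.7% and 35.1% of all genes), with a median of 0.29 where all genes had -0.01. Cyp2c23 was higher by 3.06 ± 0.07 and Cyp2c39 lower by -3.30 ± 0.15, but neither separated all strains. Glutathione transferases had 14 of 25 higher and 7 lower, led by Mgst2 (3.55 ± 0.12), which CAST and PWK expressed at means of 6.90 and 4.88 log2 units while WSB was at 0.06 and the classical strains at 0.13 to 0.96. UDP-glucuronosyltransferases had 9 of 19 higher and 6 lower (47.4% and 31.6%), and carboxylesterases 6 of 16 higher and 9 lower (37.5% and 56.2%).

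Genes that male livers express above female livers formed a group of 24 tested genes. 19 rose and 3 fell in the wild-derived strains (79.2% and 12.5%, against 32.7% and 35.1% of all genes). The median difference was 0.80, and the counts were 18 and 3 with equal totals. All animals were males, so this is a difference between male livers. The 3 lower members, named after their values were seen, were Cspg5, Rarres1 and the growth hormone receptor Ghr (-0.17 ± 0.05). 3 members separated. Moxd1, a copper monooxygenase related to dopamine beta-hydroxylase, had 66.5, 1737 and 8661 count equivalents in wild-derived animals and 0, 4.63 and 5139 in classical animals. The overlap came from NZO and the highest B6 and NOD animals. In NZO the mean was 3.19 log2 units on high fat and 8.88 on chow, while the other classical strain means were 1.86 to 3.5. In chow animals alone Moxd1 did not separate (adjusted p = 1), nor did Cyp7b1 and Ugt2b38, described next (adjusted p = 1 for both). Cyp7b1, the oxysterol hydroxylase of the alternative route of bile acid synthesis, had 5610, 9721 and 21910 in wild-derived and 238.2, 2462 and 7065 in classical animals. It was higher by 2.17 ± 0.11, and its separation was lost with equal totals (adjusted p = 0.0526) and with quantile normalization (0.13). Ugt2b38, a glucuronosyltransferase, had medians of 289.9 in wild-derived and 16.6 in classical animals (4.09 ± 0.17), with 129S1 at a mean of 0.27 log2 units against 4.10 to 5.10 in the other classical strains.

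Genes with higher expression in female livers did not move as a group, with 10 of 23 higher and 9 lower (43.5% and 39.1%, against 32.7% and 35.1% of all genes). Cyp2b9, a P450 chosen after its values were seen, was near 0 in all 3 wild-derived strains (means 0.45 to 0.61 log2 units) and also in 129S1 (0.34), against 4.84 to 9.56 in the other classical strains. Sult3a1 had a mean of 13.6 log2 units in CAST, against 1.93 and 1.96 in PWK and WSB and 1.60 to 3.17 in the classical strains. Sult2a1 was at 9.52 in PWK, against 0.43 in CAST and WSB. These sulfotransferases therefore gave high class means (3.70 ± 0.18 and 3.11 ± 0.12) without separating the classes.

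The major urinary proteins are pheromone-binding lipocalins made in very large amounts by male liver. Together the members with a symbol took 4.78% to 21.9% of all count equivalents in wild-derived animals (median 9.36%) and 1.18% to 15.6% in classical animals (median 7.14%). The ranges overlapped in part, since all AJ animals (1.18% to 3.30%) lay below every wild-derived animal. Loci with an identifier only are not in these shares. 1 such locus, without overlap between the classes, had medians of 267700 in wild-derived and 27630 in classical animals. Whether it belongs to the family was not tested. Single members differed far more. Mup10 had 1825, 4885 and 102600 count equivalents in wild-derived animals, against 19230, 129600 and 290500 in classical animals. Without the 1 CAST male at 102600 the highest wild-derived value was 9305, below every classical animal. Mup10 was lower by -4.67 ± 0.10, and it still separated without the 2 CAST males that stood apart. Mup13 was higher by 6.24 ± 0.12 and Mup14 by 2.47 ± 0.12, with strain means for Mup13 of 9.06 in CAST, 17.0 in PWK and 13.6 in WSB, and 5.78 to 7.61 in the classical strains. Of 23 tested members 13 were higher and 6 lower (56.5% and 26.1%, against 32.7% and 35.1% of all genes). Mup14 did not separate in either diet taken alone. Between 81.8% and 91.4% of the 100-base windows of Mup10, Mup13 and Mup14 occur in other genes, mostly other members, so the assignment to a single member is uncertain.

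Several other separating genes that were higher encode secreted or signalling proteins. Serpine2, an inhibitor of thrombin and urokinase, had 237.7, 498.8 and 1880 count equivalents in wild-derived and 3.25, 57.2 and 352.0 in classical animals. Only the upper end of the classical range, in B6 and NOD, reached the wild-derived one (3.33 ± 0.11). Il33, an alarm cytokine of the interleukin 1 family, had medians of 219.1 in wild-derived and 25.1 in classical animals, and wide overlapping ranges (13.3 to 2703 and 4.87 to 323.9). It was higher by 2.9 ± 0.23. Neither Il33 nor Serpine2 separated in chow animals alone or in high fat animals alone. Fetub, the plasma protein fetuin-B, had 3994, 9783 and 20880 in wild-derived and 1279, 3387 and 5706 in classical animals, a rise of 1.46 ± 0.06. Sfi1, which binds centrin at centrosomes, rose by 1.48 ± 0.06, the cytoskeletal adaptor Pdlim1 by 1.15 ± 0.05 and the membrane protein gene Fam174b by 1.18 ± 0.06, whose separation was lost with equal totals (0.0795). Sfi1 lies on chromosome 11 and was higher in CAST too.

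Among the lower genes, Abcc3 exports bile acids and glucuronides across the basolateral membrane of hepatocytes. It had 8.21, 71.7 and 301.8 count equivalents in wild-derived animals, against 130.2, 972.8 and 2701 in classical animals. The 2 classes overlapped between 130.2 and 301.8, and the difference was -3.66 ± 0.10 (6.08e-19). Abcc3 lies on chromosome 11, and CAST was at 4.87 log2 units, but PWK and WSB were also low at 6.83 and 6.71, against 9.16 to 10.3 in the classical strains. Baat, which joins bile acids to taurine, was lower by -0.79 ± 0.05, with medians of 1205 in wild-derived and 2042 in classical animals. Slco1a4, a bile acid importer, was lower by -2.01 ± 0.16 but did not separate (adjusted p = 0.227). Of 25 tested genes of bile acid synthesis and transport, 9 were higher and 9 lower (9 and 8 of 24 without chromosome 11). These shares, 36% each, were near the 32.7% and 35.1% of all genes.

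Slc3a1, a subunit of the transporter of cystine and basic amino acids, had 4.04, 18.8 and 613.1 count equivalents in wild-derived and 157.7, 808.9 and 2473 in classical animals. The overlap included WSB, whose mean of 8.25 log2 units stood near the classical 9.37 to 9.90, while CAST and PWK were at 4.5 and 3.79. CAST males reached into the classical range too, 1 of the 2 that stood apart with 334.7 and the other 14 with up to 299.4. Inmt, a methyltransferase of indole amines, had medians of 181.7 in wild-derived and 1419 in classical animals (-2.99 ± 0.18). It lay at the threshold, with an adjusted p of separation of 0.0522 at a pseudocount of 0.5 and 0.0544 with lane as a block. Nsun3, which methylates a mitochondrial transfer RNA, had medians of 35.4 in wild-derived and 105.3 in classical animals, with ranges that met between 76.9 and 81.2, and its 3 wild-derived means (5.10 to 5.26 log2 units) were nearly the same. Tmem19, a membrane protein gene, was lower by -1.39 ± 0.04, Carmil1, a regulator of actin capping, by -2.39 ± 0.09, and Camk1d, a calmodulin-dependent kinase, by -3.38 ± 0.14, whose separation was lost with lane as a block (0.0516). Slc3a1, Inmt and Camk1d did not separate in either diet taken alone.

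Alas2, the first enzyme of heme synthesis in red cell precursors, had 40.9 to 449.9 count equivalents in wild-derived animals, with strain means of 6.49 to 7.66 log2 units, against 373.6 to 1883 and strain means of 9.36 to 10.34 in classical animals. 1 CAST male reached into the classical range, which began in B6, and the difference was -2.81 ± 0.08. All 6 tested red cell genes were lower, among them Hba-a2 (-1.98 ± 0.20) and Hbb-bt (-1.01 ± 0.17). 3 of the 6 lie on chromosome 11, and the 3 others were lower as well. The summed level of 3 red cell markers, Alas2 among them, was 139.1 to 6543 (median 729.5) in wild-derived and 754.0 to 6743 (median 2179) in classical livers. Since the sum holds Alas2 itself, it is not independent of the fall of Alas2, and the part of red cells in that fall was not tested. In bulk tissue, fewer cells of a type and less RNA per cell cannot be told apart. Alad and Fech, heme enzymes that hepatocytes use as well, were lower by -1.08 ± 0.06 and -0.30 ± 0.03. Of 23 iron and heme genes 14 were lower and 4 higher (60.9% and 17.4%, against 35.1% and 32.7% of all genes).

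**Figure D3:**
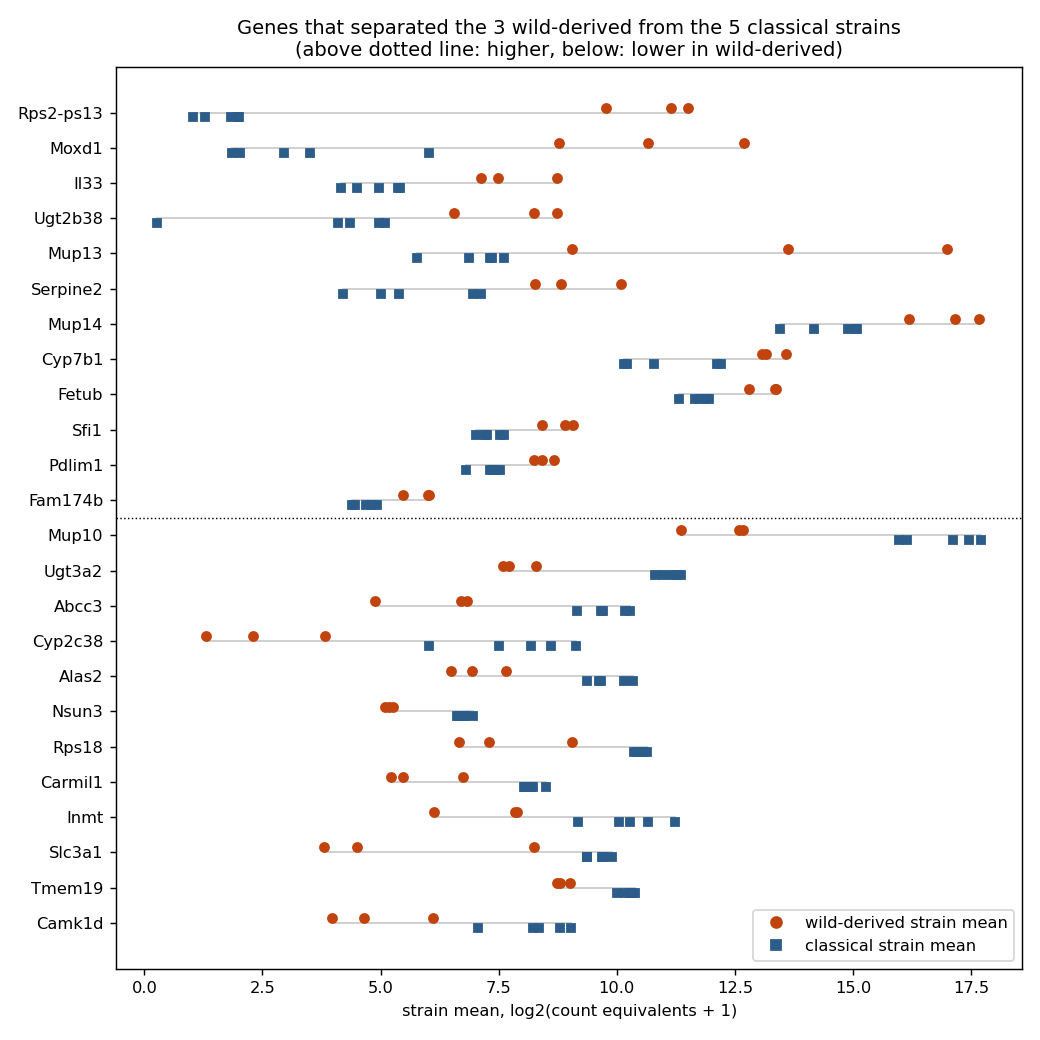
Strain means (horizontal axis, log2(count equivalents + 1)) of the 24 separating genes named by the rule, with the 3 wild-derived strains as orange circles and the 5 classical strains as blue squares. In the 12 genes above the dotted line all circles lie to the right of all squares, and in the 12 below to the left.

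The gene groups of fat storage and use were lower in the wild-derived strains, where 35.1% of all tested genes were lower and 32.7% higher. Of 19 tested genes of lipid droplets and fat uptake, 15 were lower and 3 higher (78.9% and 15.8%), with a median of -0.59. Only 1 of the 19 was called with the 8 strains as replicates, where 0.682% of all genes were. Pparg, the nuclear receptor that drives fat storage genes, had 0, 3.54 and 12.3 count equivalents in wild-derived animals, against 1.81, 26.2 and 263.2 in classical animals. Its ranges overlapped in every classical strain but B6, and it did not separate (-2.57 ± 0.12, adjusted p of separation 0.182). Fitm1, which helps lipid droplets form, was lower by -2.58 ± 0.11 and Mogat1, which makes diacylglycerol, by -1.92 ± 0.14. The 3 higher members, named after their values were seen, were Pnpla2, Hilpda and Fabp4.

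Of 28 genes of fatty acid oxidation and ketone synthesis 20 were lower and 2 higher (71.4% and 7.14%), and without chromosome 11 the counts were 18 and 2 of 26. Cyp4a14, a fatty acid omega-hydroxylase induced through PPAR alpha, had 0, 5.61 and 1192 count equivalents in wild-derived and 2.07, 581.9 and 18160 in classical animals (-5.29 ± 0.33). Vnn1, a pantetheinase, was lower by -2.75 ± 0.16. Acadvl was lower by -1.05 ± 0.03, but it lies on chromosome 11 and the fall was in CAST (8.75 log2 units, against 11.4 in PWK and WSB and 11.48 to 11.61 in the classical strains). Genes of fatty acid and triglyceride synthesis had 13 of 22 lower and 3 higher (9 and 3 of 18 without chromosome 11), with Me1 at -1.19 ± 0.12 and the glucose-responsive factor Mlxipl at 0.76 ± 0.07. Cholesterol synthesis and uptake had 14 of 25 lower and 1 higher (56% and 4%, against 35.1% and 32.7% of all genes). Strains as replicates gave 1 call in the oxidation list and 0 in the 2 synthesis lists, where 0.682% of all genes were called.

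Proteasome subunits moved together by small amounts. 32 of 38 were lower and 0 higher (84.2% and 0%, against 35.1% and 32.7% of all genes), with a median of -0.18. Without the 7 subunits on chromosome 11, 25 of 31 were lower. Psmd1, a scaffold of the regulatory particle, had 483.0, 622.1 and 855.6 count equivalents in wild-derived and 682.7, 821.0 and 981.3 in classical animals, and separated with a gap of -0.17 (adjusted p = 0.0440). Psmd12 separated as well (0.0112), but on chromosome 11 and with CAST at 7.29 log2 units against 8.66 in PWK and WSB. Respiratory chain genes had 61 of 89 higher and 13 lower, and cytosolic ribosomal protein genes, pseudogenes included, 59 higher (48.8%) and 28 lower (23.1%). Without chromosome 11 they were 60 and 9 of 84, and 59 and 21. The list medians, 0.14 and 0.07, are about the size of the shift of -0.13 that equal totals gave to all genes. With equal totals the respiratory chain counts were 22 and 22 and the ribosomal ones 33 and 54, where 27.8% of the calls over all genes were higher. Strains as replicates called 0 proteasome, 0 respiratory chain and 4 ribosomal genes, and 0.682% of all genes.

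Immune gene groups were mostly lower, where 35.1% of all tested genes were lower and 32.7% higher. Of 22 genes of MHC class I and antigen processing 15 were lower and 4 higher (68.2% and 18.2%). H2-D1 had 649.7, 1316 and 3850 count equivalents in wild-derived and 2055, 3773 and 6998 in classical animals (-1.46 ± 0.05), while H2-T23 was higher by 1.26 ± 0.05. Of 24 Toll-like receptor and inflammasome genes 18 were lower and 4 higher (17 and 3 of 22 without chromosome 11), with Tlr1 at -2.03 ± 0.18 and Naip2 at -2.02 ± 0.09, while Tlr6 was higher by 1.15 ± 0.12. Macrophage and Kupffer cell genes had 14 of 19 lower and 2 higher (12 and 2 of 17 without chromosome 11), led by Marco (-2.68 ± 0.20) and Adgre1 (-1.46 ± 0.10). The summed level of 8 Kupffer markers was 564.3 to 2669 (median 1455) in wild-derived and 1188 to 5213 (median 2102) in classical livers, 7 of the 8 being lower. The part of these cells in the other immune genes was not tested. Strains as replicates called 0 MHC class I, 0 Toll-like receptor and 2 macrophage genes of these lists, and 0.682% of all genes.

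Interferon-stimulated genes had 19 of 32 lower and 6 higher (59.4% and 18.8%, against 35.1% and 32.7% of all genes). Without chromosome 11 they were 17 and 5 of 28, but with CAST left out 7 were lower and 12 higher. Isg15 had means of 2.81 log2 units in CAST, 4.64 in PWK and 5.38 in WSB, and of 5.49 to 6.64 in the classical strains. Mx2 was higher by 2.85 ± 0.13, where NZO was at 1.33 and the other classical strains at 5.80 to 6.92. Acute phase genes had 14 of 27 lower and 2 higher (51.9% and 7.41%), and 14 and 2 of 26 without chromosome 11. Neither this list nor the interferon list had a call with strains as replicates.

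**Figure D4:**
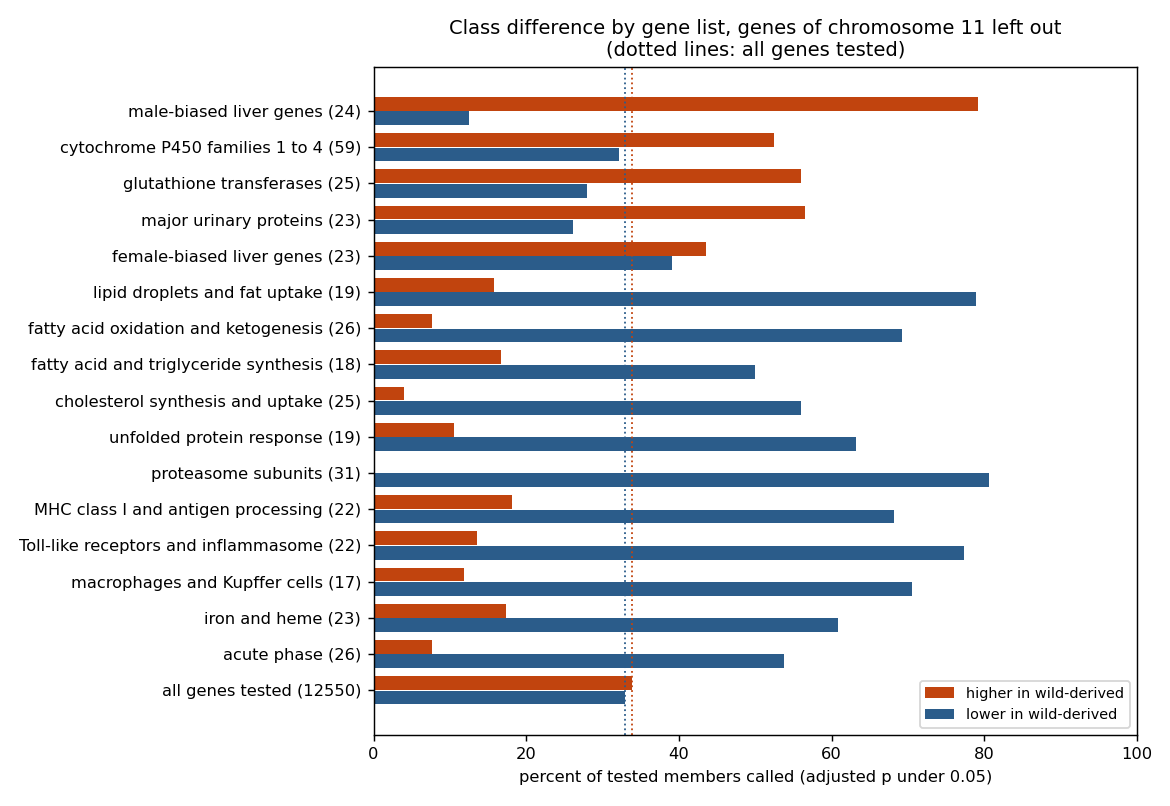
Percent of tested members of 16 gene lists called higher (orange) or lower (blue) in the wild-derived strains, with genes of chromosome 11 left out and the number of members in brackets; dotted lines give all 12550 genes (33.9% higher, 32.9% lower). Male-biased genes reach 79.2% higher, and proteasome subunits 80.6% lower with 0 higher.

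The response to the high fat diet differed between the classes in 736 genes (5.40%). The difference, wild-derived response minus classical response, was positive in 296 (2.17%) and negative in 440 (3.23%). Taken by class, the diet changed 1298 genes (9.52%) in the wild-derived and 2953 (21.7%) in the classical strains. Strain by strain it changed 1.33% of genes in CAST, 3.11% in PWK and 5.74% in WSB, against 0.249% in AJ, 3.54% in B6, 1.66% in 129S1, 1.76% in NOD and 17.8% in NZO. Without NZO, the strain with the most changed genes and the younger animals, 255 genes differed in response between the classes, 99 of them positive. Without AJ, the strain with the fewest, 1296 did.

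Cd36, a fatty acid uptake receptor, had 188.8, 273.7 and 365.1 count equivalents (lowest, median and highest) on high fat and 191.8, 312.0 and 451.9 on chow in wild-derived animals. In classical animals it had 81.6, 700.2 and 3111 on high fat and 72.9, 253.9 and 2606 on chow. The wild-derived animals stayed within a narrow band on both diets. Animals of AJ, B6, 129S1 and NZO reached above that band on high fat, and all NOD animals lay below it. The response was -0.24 in the wild-derived and 1.22 in the classical strains, a difference of -1.45 ± 0.20 (adjusted p = 1.9e-07 by limma). It was negative or near 0 in all 3 wild-derived strains (-0.43 to -0.03) and positive in all 5 classical strains (0.36 to 2.05).

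Mogat1 was near 0 in wild-derived animals on both diets (highest 2.84 count equivalents on high fat and 3.24 on chow). In classical animals it reached 105.6 on high fat and 22.6 on chow, with medians of 11.7 and 1.03. The wild-derived responses were 0.11 to 0.53 and the classical 0.45 to 3.72. Of the 19 lipid droplet genes 8 differed in mean response, all with a smaller or more negative mean in the wild-derived strains (42.1%, against 3.23% of all genes). The strain responses did not overlap between the classes in Pparg, Plin4 and Cd36, but did in Mogat1, Cidea, Pnpla2, Cidec and Fitm2. Cidea responded by 5.44 in B6 and 3.27 in NZO, but by -0.07 to 0.29 in AJ, 129S1 and NOD and -0.32 to 0.13 in the wild-derived strains. Cidec responded by -0.10 in 129S1 and 0.30 in NOD, against 0.63 in PWK. Pparg was at 0, 3.54 and 12.3 on high fat and 0.93, 3.54 and 8.29 on chow in wild-derived animals, and at 6.14, 35 and 263.2 on high fat and 1.81, 15.1 and 66.5 on chow in classical animals. The median response of the list was -0.34 to 0.15 in the wild-derived strains, 0.17 to 0.30 in AJ, 129S1 and NOD, 0.60 in B6 and 0.94 in NZO.

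**Figure D5:**
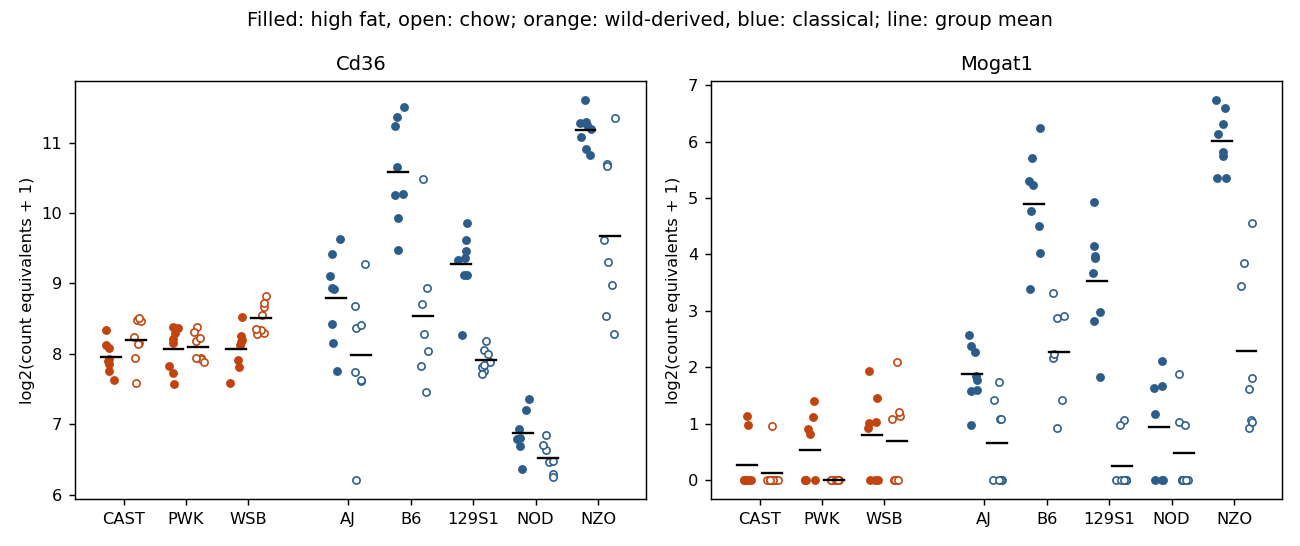
Level of Cd36 and Mogat1 in each animal (vertical axis, log2(count equivalents + 1)) by strain, on high fat (filled) and chow (open), wild-derived in orange and classical in blue, with group means as lines. Cd36 keeps within 188.8 to 451.9 count equivalents in the wild-derived strains and reaches 3111 in the classical ones.

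Fatty acid oxidation genes showed the same direction, with 9 of 28 responding less in the wild-derived strains (32.1%, against 3.23% of all genes). Cyp4a14 responded by -0.54 in the wild-derived and 2.31 in the classical strains, and its level on high fat was 0.97, 5.75 and 104.9 in wild-derived and 10.5, 1479 and 18160 in classical animals. Among female-biased genes 10 of 23 responded less (43.5%), with Cyp2b9 at -0.09 in the wild-derived and 2.71 in the classical strains. The unfolded protein response, chaperones and enzymes of the endoplasmic reticulum, went the other way. 8 of 20 members had a more positive response in the wild-derived strains (40%, against 2.17% of all genes). Among them were the chaperone Hspa5 (0.37 in wild-derived and -0.40 in classical strains), Hyou1 and Manf. 1 member, Trib3, had a more negative response. By class, 35.1% of all genes were lower in the wild-derived strains and 32.7% higher. Of the 20 unfolded protein response genes, 12 were lower and 3 higher (12 and 2 of 19 without chromosome 11). In chow animals alone 12 were lower, where 3902 of all 13138 tested genes were. In high fat animals alone 2 were lower, where 3870 of all 13115 were.

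The other 6 genes named by the rule for the diet response belonged to several functions, and some were low. Themis, a T cell signalling gene, was at 0, 0 and 3.45 count equivalents on high fat in wild-derived animals and at 0, 14 and 258.5 in classical animals on that diet. The wild-derived response was 0.04 and the classical 2.67. The summed level of 15 T, B and NK cell markers was 35.1 to 306.7 in wild-derived and 26.7 to 3025 in classical livers, with Trac and Ncr1 at a median of 0, and their part in this result was not tested. Lrtm2 responded by -5.11 in WSB and -2.52 in CAST but -0.08 in PWK. Gdpd1 responded by 2.14 in PWK, and its difference of 1.34 fell to 0.58 without PWK (adjusted p = 0.155). Gstp1, a glutathione transferase that has a near-identical neighbour in mice, differed in response by 1.08, Rad51c, a recombination gene, by 1.44, and Nop16, a nucleolar protein, by 0.52.

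The separating genes were then looked up in the Diversity Outbred males, which are mosaics of the same 8 genomes and were aligned by the authors to individual genomes in a table normalized separately. Over 66 males on high fat and 68 on chow, the SD between animals of 1 diet on the log2 scale had a median of 0.55 for the separating genes listed there, against 0.36 for other genes with a class difference and 0.33 for genes without. It was over 1 in 24 separating genes (19.5%), against 495 of all 13470 (3.67%). Moxd1 and Ces2h had the highest SDs of the separating genes, 3.25 and 2.61. Ces2h had 0, 35.6 and 236.3 (lowest, median and highest), and Moxd1 0, 10.6 and 1214, on the scale of that table. Alas2, Cyp2c38 and Camk1d had SDs of 1.68, 1.65 and 1.56.

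The copies had smaller SDs. Rps18-ps3 had an SD of 0.39 and ran from 151.3 to 797.9 in the outbred males, so that no outbred male was at 0, where most classical founders were. Amd2 (SD 0.36) ran from 34.3 to 141.1 and Rps2-ps13 (SD 0.41) from 595.1 to 3234. Mup13, with an SD of 0.93, ran from 13240 to 674100, where classical founders had 27.4 to 376.0, and Rps18 from 979.8 to 5215. Levels from the 2 tables were scaled separately, so only the spread and the absence of low animals are set side by side here.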

How the data were processed

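RNA of 128 founder livers was sequenced as 100-base single-end reads, and the comparison used 126 animals. Per the submitters' processing notes the tools were CASAVA 1.8.0, Bowtie 0.12.8 and RSEM 1.2.1 with the NCBIM37 (mm9) build. The deposited founder values, made by the authors from alignment to strain genomes, are a normalized signal whose 75th percentile is 1 in each animal. They were multiplied by 114.877 to give count equivalents. Only 82.7% of low values (80.4 to 84.6% per animal, tolerance 0.1 read) came out whole, so no count model was used and recovered totals are approximate.

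Genes with at least 10 count equivalents in 7 animals (13636 genes) entered limma 3.58.1 (R 4.3.3) with an intensity trend on log2(value + 1), with 1 mean for each of 16 strain and diet groups and Benjamini-Hochberg adjustment over all genes. In each class the strains were weighted equally. Separation used the largest p of 15 strain differences. The p-values of the class and diet contrasts treat animals as replicates and so speak of these 8 strains; strains as replicates are an alternative. The 8 sequencing lanes hold 1 animal of each group, per the labels, and lane was tried as the block that pairs them.

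Named genes were the 12 widest gaps in each direction (mean log2 of 5 or more, no predicted symbols), the 4 smallest p-values per direction for the diet response, separating members of 48 gene lists and up to 3 further members by p, and 2 genes on each side of the threshold. The members and lists were chosen with earlier results of these data known, and the lists come from general knowledge of liver biology. On simulated data the class contrast recovered 99% of 1.5-fold and 100% of 2-fold changes, separation 2% and 85%, and the diet response difference 37% and 100%. False calls made up 8.72% of calls in the class contrast, 0% in separation and 2.84% in the diet response difference. Those shares are for simulated data with a dispersion of 0.1, in which strains of 1 class had the same mean. The founder strains of 1 class did differ, so the recovery and the shares do not carry over to them. The share of false calls in the founder animals, for separation and for the other contrasts, was not tested. Shared 100-base windows, identities and sequences were computed from GENCODE M21 transcripts (GRCm38), and no coordinates are given. Symbols were matched for 22760 of 24965 genes. Of the outbred animals, 134 males were used, in a table that was normalized separately and scaled by its own mean upper quartile.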

Additional observations from a re-analysis of the deposited data

Results flagged for a closer look

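Ugt2b38 in 129S1 stood apart from the other classical strains. Its strain mean was 0.27 log2 units, against 4.10 to 5.10 in AJ, B6, NOD and NZO. 24 such sets of 5 classical means were examined for a far value, and chance marks about 1 in 20.

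8 genes differed between the classes in their response to the high fat diet by the test of the difference itself. Positive differences (wild-derived minus classical response, log2) were 1.344 for Gdpd1, 0.516 for Nop16, 1.085 for Gstp1 and 1.436 for Rad51c. Negative ones were -2.717 for Lrtm2, -2.63 for Themis, -1.45 for Cd36 and -1.999 for Mogat1. The responses of the wild-derived and classical strains had opposite signs in Gdpd1 (0.60 and -0.74), Nop16 (0.39 and -0.13), Gstp1 (0.48 and -0.61), Rad51c (0.84 and -0.60), Lrtm2 (-2.57 and 0.15) and Cd36 (-0.24 and 1.22). Of these, the classical response was not called in Nop16 (adjusted p = 0.0808, limma) and Lrtm2 (0.657), nor the wild-derived response in Cd36 (0.38). In Gdpd1, WSB responded by -1.01, with the sign of the classical strains.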

How the results depend on the processing

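The count of genes with a class difference stayed within 1.5 times of 9240 in all settings that kept animals as replicates. As a share of tested genes it was 67.8%, and 0.682% with strains as replicates. Without a filter on low values, where many more genes were tested, the shares were 45% for the class difference, 0.473% for separation and 2.13% for the diet response. The share that separated, 0.924%, was 1.69% with equal totals, 0.381% in chow animals alone and 0.488% in high fat animals alone, where each strain has fewer animals. With fewer strains to separate it was 2.27% without CAST, 2.5% without PWK, 6.03% without WSB and 1.66% without NOD. The share that differed in diet response, 5.40%, was 2.97% without CAST, 3.3% without PWK, 9.56% without AJ and 1.89% without NZO, and the cause was not tested. With sequencing lane as a replicate block 9221 genes had a class difference, 53 separated as higher and 69 as lower, and 700 differed in diet response. Apart from Inmt and Camk1d, the block changed no call of a named gene. Over the named separating genes, 466 gene-by-setting results kept their side of the threshold and 36 fell below it, none with a change of sign. Il33, Serpine2, Mup14, Cyp7b1, Inmt, Slc3a1 and Camk1d separated neither in chow animals alone nor in high fat animals alone. Moxd1, Ugt2b38 and Cyp2c38 did not separate in chow animals alone, nor Fam174b in high fat animals alone. With strains as replicates Ugt2b38, Mup13, Serpine2, Mup14, Cyp7b1, Inmt and Slc3a1 were not called. Depth limits low genes such as Mogat1 and Themis, whose fold changes the added 1 makes smaller.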

Other observations

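Of the separating genes, 71 were also called when the 8 strains served as the replicates. Atic, an enzyme of purine synthesis, was chosen after its values were seen as a gene without overlap between animals and with a small difference. Its strain means were 8.02 to 8.32 log2 units in the wild-derived and 7.32 to 7.72 in the classical strains (0.67 ± 0.03). The potassium channel gene Kcnk1, chosen in the same way, was higher by 4.89, with medians of 93.8 in wild-derived and 2.18 count equivalents in classical animals, and ranged from 0 to 107.4 in the outbred males.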
